A study of Homo sapiens with 8 samples.

Results

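A gene of RNA polymerase III, POLR3G, and 3 genes of nucleolar proteins, RRP1B, LYAR and DDX21, were followed in human multiple myeloma cells in which MMSET I, a short product of the histone methyltransferase gene NSD2, had been knocked down. They were picked by the gene symbol of their array rows, and each had exactly 1 row, so that the 4 genes are 4 of the 14812 genes with a named row. All 4 passed the filter on dim genes, which left 11109 genes for testing. The arrays came from KMS11, KMS18, KMS34 and OPM2, lines that per the labels carry the t(4;14) translocation, with 1 knockdown culture (shMMSETI) and 1 control culture of each line, 4 arrays per condition and 8 in all. Both conditions went through lentiviral infection in 8 µg/mL polybrene for 24 h and a further 48 h in fresh medium before RNA extraction. In multiple myeloma, a tumour of plasma cells, this translocation brings NSD2 under the control of the immunoglobulin heavy chain locus. Neither the hairpin sequences nor the kind of control is given in the sources used here, and the labels state no genotype of the lines beyond the translocation. The question of the comparison, as the series title puts it, is what MMSET I regulates in these cells.

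The 8 arrays had median intensities of 49.3 to 53.5, and the log2 values of both arrays of a line had a correlation over genes of 0.991 to 0.993. NSD2 itself had a mean intensity of 656 ± 75.9 in knockdown arrays and 743 ± 55.2 in control arrays (SD, n = 4 each), a log2 difference of -0.18, lower in 4 of 4 lines, which limma did not call (adjusted p = 0.472). Its row covers the whole gene and cannot separate the short isoform. Of 10 plasma cell markers listed 7 had a row and 6 passed the filter, while FCRL5 did not. SDC1, which encodes the plasma cell antigen CD138, had 869 to 1112 in knockdown arrays and 844 to 1053 in control arrays. CD38 was dimmer, with 83.2 to 365 in knockdown arrays and 50.6 to 416 in control arrays. Mean differences were above 0 for SDC1, CD38 and SLAMF7 and below 0 for IRF4, XBP1 and MZB1, and limma called 0 of these 6. Of 15 markers of other cell types listed 7 had a row, and these summed to 1029 to 1315 in knockdown arrays and 999 to 1191 in control arrays. The monocyte marker CD14 and the lysozyme gene LYZ did not pass the filter, while CD8A, PAX5, NKG7, VWF and CST3 did. Limma called 0 of these 5, and 4 of them had a mean difference above 0. CST3, the cystatin C gene, had 615 to 870 in knockdown arrays and 587 to 744 in control arrays, with a log2 difference of 0.15 (adjusted p = 0.578), and was the 1 of the 5 with an unadjusted p under 0.05. The part of these markers in the results was not tested.

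RNA polymerase III makes short RNAs such as transfer RNAs, 5S ribosomal RNA and the RNA components of RNase P and RNase MRP, while RNA polymerase I makes the large ribosomal RNA precursor in the nucleolus. POLR3G encodes a subunit of polymerase III that sits in a small subcomplex with POLR3C and POLR3F, and its paralog POLR3GL can take the same place. POLR3G is known as the form of stem cells and many tumours, POLR3GL as the form of most differentiated tissues. RRP1B is a nucleolar protein that binds protein phosphatase 1, and its paralog RRP1 is named after the yeast factor of large ribosomal subunit assembly. LYAR is a zinc finger protein of the nucleolus of growing cells that takes part in ribosomal RNA processing. DDX21 is an RNA helicase of the nucleolus that binds ribosomal RNA and small nucleolar RNAs, and DDX50 is its close paralog.

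The promoters of LYAR and DDX21 are shown because both genes belong to a group of ribosome biogenesis genes known as targets of the transcription factor MYC, whose dimer with MAX binds the E-box CACGTG. RefSeq windows of 300 bases, from 250 before to 50 after an annotated gene start, were at hand for these 2 of the 4 genes, with 2 windows each for alternative starts. In each gene 1 of its 2 windows held 1 copy of the motif. The windows with the motif follow, 5′ to 3′ on the strand of the gene, with the motif in capitals, from build GRCh38.p14. The LYAR window is chr4:4289972-4290271 on the minus strand, with the motif beginning 64 bases before the start that this window belongs to. The DDX21 window is chr10:68956397-68956696 on the plus strand, with the motif beginning 31 bases before its own start. In both genes this is an inner start, so that the motif lies within the annotated span of the gene. The windows at the outer starts, chr4:4290105-4290404 and chr10:68955920-68956219, held no copy.
LYAR: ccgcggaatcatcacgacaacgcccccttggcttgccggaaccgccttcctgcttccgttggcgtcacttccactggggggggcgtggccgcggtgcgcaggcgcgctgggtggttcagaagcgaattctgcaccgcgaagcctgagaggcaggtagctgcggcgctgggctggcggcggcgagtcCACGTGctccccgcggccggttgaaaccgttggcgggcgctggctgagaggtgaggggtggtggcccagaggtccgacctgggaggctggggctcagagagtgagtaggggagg
DDX21: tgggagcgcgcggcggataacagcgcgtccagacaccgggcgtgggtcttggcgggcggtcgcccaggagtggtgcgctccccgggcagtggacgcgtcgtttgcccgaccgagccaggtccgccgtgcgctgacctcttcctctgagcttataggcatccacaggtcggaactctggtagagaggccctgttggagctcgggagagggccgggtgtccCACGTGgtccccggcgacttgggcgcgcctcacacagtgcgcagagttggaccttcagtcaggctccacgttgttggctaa

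The motif reads the same on both strands, and 7.26% of all 35116 windows of this length held it. Counted by gene, with any of a gene's windows, it was found in 12.3% of the 8530 tested genes with a window. It was found in 29 of the 77 nucleolar genes with a window (37.7%) from the lists described further on, the 4 genes left out. These counts describe the letters of the reference sequence and not binding in these cells. Tested genes with the motif had a median log2 knockdown difference of -0.0040, and those without it one of -0.0025.

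POLR3G was lower with the knockdown in each line. Bulk arrays cannot tell less of an RNA per cell from fewer cells that carry it. Its intensity in knockdown arrays was 177 for KMS11, 200.3 for KMS18, 169 for KMS34 and 107 for OPM2. In control arrays it was 267 for KMS11, 285 for KMS18, 222 for KMS34 and 164 for OPM2. Within every line the knockdown array was the lower one, but the groups overlapped, because the control array of OPM2 (164) was lower than the knockdown arrays of the other 3 lines. The knockdown array was lower by 34.8% in OPM2, 33.6% in KMS11, 29.7% in KMS18 and 23.9% in KMS34. On the log2 scale the differences were -0.59 for KMS11, -0.51 for KMS18, -0.39 for KMS34 and -0.62 for OPM2, with a mean of -0.53 and a standard error of 0.065. Among the 11109 tested genes, 25 had a lower difference for KMS11, 26 for KMS18, 116 for KMS34 and 8 for OPM2. The 4 genes were chosen with their knockdown differences on these same arrays known, so these differences are given as a description without a test. In the fit made here 0.099% of the tested genes were called lower (11 genes) and 0.018% higher (2 genes). With any line left out the lower calls numbered 1 to 2, and without the line as a block 0. POLR3G and RRP1B are among the lower ones, from which nothing is read, and LYAR and DDX21 are not among the 13. The last gene inside the threshold was the kinase gene MAP3K3, with a log2 difference of -0.46, and the first outside it was the replicative helicase gene MCM6, with -0.40.

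**Figure D1:**
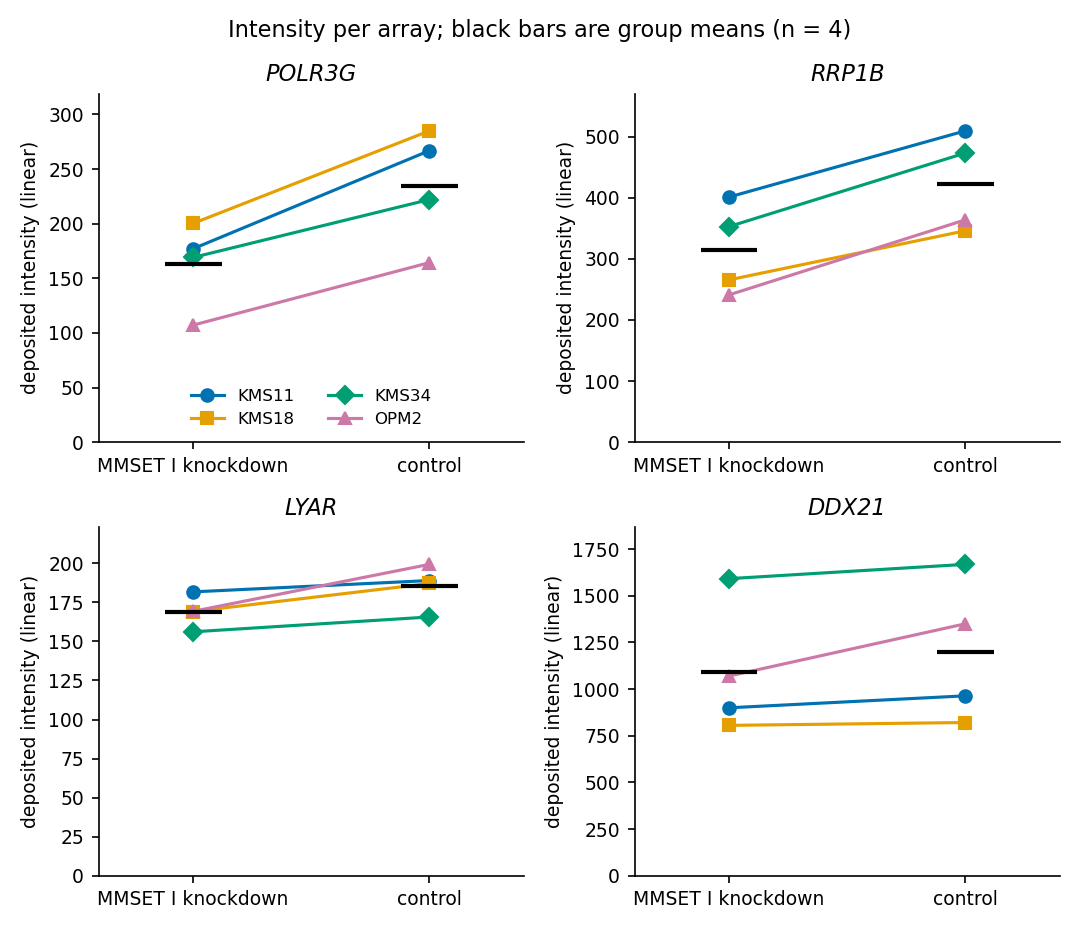
Deposited linear intensity (y axis, from 0) of POLR3G, RRP1B, LYAR and DDX21 in knockdown arrays (left in each panel) and control arrays (right), with the 2 arrays of a line joined and black bars at the group means (n = 4). Every joined line slopes down towards the knockdown. The spread between lines is wider than the mean step for each gene, and for DDX21 it runs from 805 to 1591 in knockdown arrays.

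The paralog of POLR3G, which played no part in the choice of genes, was higher with the knockdown in each line. POLR3GL had 146 for KMS11, 137 for KMS18, 92.7 for KMS34 and 119 for OPM2 in knockdown arrays, against 122, 121, 88.6 and 89.6 in control arrays of the same lines. Its mean was 124 ± 23.4 in knockdown arrays and 105 ± 18.8 in control arrays (SD, n = 4 each). The log2 differences of 0.25, 0.18, 0.065 and 0.41 averaged 0.23 with a standard error of 0.070, or 17.0% higher. This missed limma's threshold over all genes (adjusted p = 0.417, unadjusted p = 0.00714), where 4.26% of all tested genes were higher at an unadjusted p under 0.05. It was higher in 4 of 4 lines, as were 8.29% of all tested genes. The 2 paralogs thus stood in opposite directions in every line, and the lines had the same order of size for both, with OPM2 first, then KMS11, KMS18 and KMS34. The difference of POLR3G minus that of POLR3GL was -0.84 for KMS11, -0.69 for KMS18, -0.46 for KMS34 and -1.03 for OPM2.

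RRP1B was also lower with the knockdown in each line. Knockdown arrays had 401 for KMS11, 266 for KMS18, 353 for KMS34 and 241 for OPM2. Control arrays had 509 for KMS11, 346 for KMS18, 473 for KMS34 and 364 for OPM2. KMS11 and KMS34 were the brighter lines in both conditions, and the knockdown array of KMS11 lay above the control arrays of KMS18 and OPM2, so that the groups overlapped. The knockdown array was lower by 21.3% for KMS11, 23.2% for KMS18, 25.4% for KMS34 and 33.7% for OPM2. The log2 differences of -0.34, -0.38, -0.42 and -0.59 averaged -0.44 with a standard error of 0.066. In OPM2 only 9 tested genes had a lower difference, whereas in KMS11 349 did.

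Its paralog RRP1 had differences of both signs. RRP1 had 467, 378, 391 and 322 in the knockdown arrays of KMS11, KMS18, KMS34 and OPM2, against 453, 347, 405 and 339 in their control arrays. The log2 differences were 0.044, 0.12, -0.049 and -0.074. Their mean was 0.011 (standard error 0.064), and limma did not call it (adjusted p = 0.976). The sign of that mean turned when KMS11 or KMS18 was left out. The difference of RRP1B minus that of RRP1 ranged from -0.37 in KMS34 to -0.52 in OPM2. Since RRP1B was chosen with its differences known, nothing is read from this gap.

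LYAR and DDX21 had smaller differences than POLR3G and RRP1B. LYAR had 182 for KMS11, 169.1 for KMS18, 156 for KMS34 and 169.3 for OPM2 in knockdown arrays. It had 189 for KMS11, 187 for KMS18, 166 for KMS34 and 199 for OPM2 in control arrays. The mean was 169 ± 10.4 in knockdown arrays and 185 ± 14.1 in control arrays (SD, n = 4 each), and the ranges overlapped. The knockdown array was lower by 15.1% in OPM2 and 3.84% to 9.60% in the other lines, and the mean log2 difference was -0.13 with a standard error of 0.063.

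DDX21 had 899 for KMS11, 805 for KMS18, 1591 for KMS34 and 1069.55 for OPM2 in knockdown arrays. Control arrays had 963 for KMS11, 820.4 for KMS18, 1668 for KMS34 and 1349 for OPM2. The OPM2 pair stood out with a knockdown array 20.7% lower, while the knockdown array was 6.65% lower in KMS11, 1.86% in KMS18 and 4.59% in KMS34. The mean log2 difference was -0.13 with a standard error of 0.069, and it was -0.065 without OPM2. All 4 genes were lower in 4 of 4 lines, as were 8.76% of the tested genes, and nothing is read from that count, since the choice of genes rests on these differences. For each of the 4 the knockdown and control arrays overlapped, while 0.234% of the tested genes had all knockdown arrays below all control arrays.

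DDX50 lies next to DDX21 on chromosome 10. It had 181 for KMS11, 145 for KMS18, 226 for KMS34 and 259.8 for OPM2 in knockdown arrays, against 208, 176, 243 and 302 in control arrays. It was lower in each line, with log2 differences of -0.20, -0.28, -0.11 and -0.22, a mean of -0.20 and a standard error of 0.063. The limma test did not call it (adjusted p = 0.420, unadjusted p = 0.00729). Its lowest difference was in KMS18, the line with the smallest difference of DDX21.

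**Figure D2:**
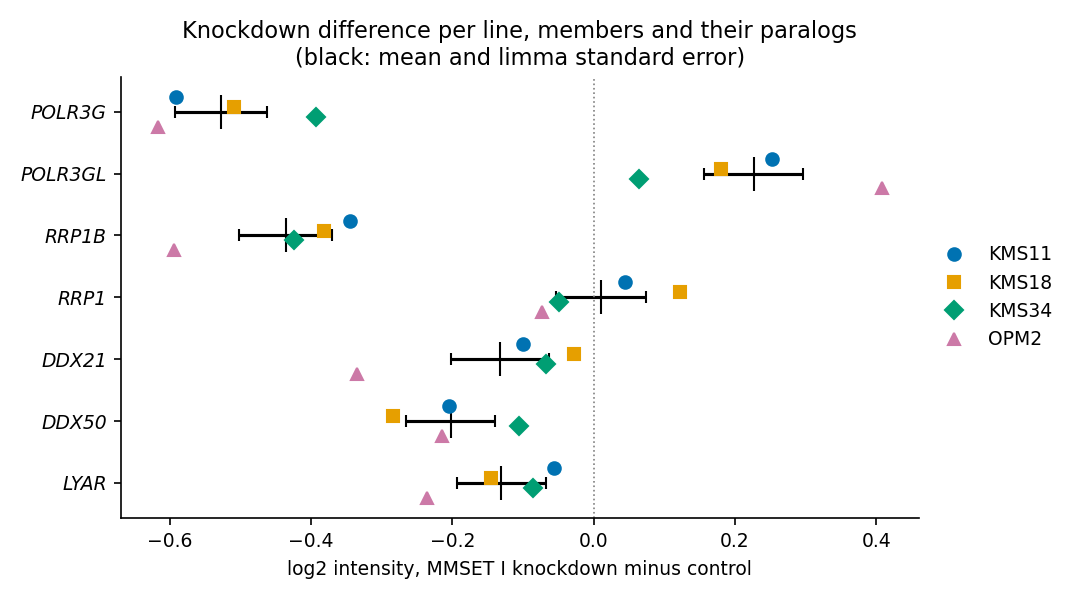
Log2 intensity difference, knockdown minus control (x axis), of the 4 genes and the 3 paralogs, with 1 symbol per line and the mean with its limma standard error in black. OPM2 (triangles) lies lowest for POLR3G, RRP1B, DDX21 and LYAR, and POLR3GL lies above 0 in each line, from 0.065 to 0.41.

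Each of the 4 genes had its lowest difference in OPM2, at -0.62 for POLR3G, -0.59 for RRP1B, -0.24 for LYAR and -0.34 for DDX21. The tested genes as a whole were not shifted in that line, with a median difference of 0.0024 and 49.4% of genes below 0. NSD2 had its lowest difference in KMS18 (-0.31), and in OPM2 it stood at -0.16. With 1 culture pair per line, a difference between lines in the size of the knockdown effect was not tested.

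Levels between lines were not used to choose the genes and could be tested. Limma's moderated F test over the line means called POLR3G (adjusted p = 1.99e-05), RRP1B (adjusted p = 0.000121) and DDX21 (adjusted p = 7.53e-06) but not LYAR (adjusted p = 0.163). It called 75.7% of all tested genes, so that 3 of 4 is near the background. With 2 arrays per line, its error term joins how unequal the knockdown differences of the lines were with a prior variance from all genes. The choice of genes rests on those differences, so the error term is not independent of the choice. The span from the lowest to the highest line was 1.80-fold for POLR3G, 1.53-fold for RRP1B, 1.15-fold for LYAR and 2.00-fold for DDX21.

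By the geometric mean of its 2 arrays, POLR3G ranked KMS18 (239), KMS11 (217), KMS34 (194) and OPM2 (133). OPM2 was below each other line, with KMS34 1.46-fold above it (adjusted p = 0.000367, over all genes and 6 pairs of lines). KMS18 was 1.23-fold above KMS34 (adjusted p = 0.0168). The neighbours KMS18 and KMS11 did not pass the threshold (log2 difference 0.14, 95% interval -0.064 to 0.34), nor did KMS11 and KMS34 (0.17, -0.035 to 0.37).

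RRP1B split into an upper and a lower pair of lines, with KMS11 (452) and KMS34 (409) above KMS18 (303) and OPM2 (296). KMS34 exceeded KMS18 1.35-fold (adjusted p = 0.00224). Within the upper pair the log2 difference was 0.15 (95% interval -0.057 to 0.35), and within the lower pair 0.034 (-0.17 to 0.24), and neither passed.

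DDX21 ranked KMS34 (1629), OPM2 (1201), KMS11 (931) and KMS18 (813). KMS34 was 1.36-fold above OPM2 (adjusted p = 0.00269) and OPM2 1.29-fold above KMS11 (adjusted p = 0.00808). KMS11 and KMS18 did not pass the threshold (log2 difference 0.20, 95% interval -0.018 to 0.41).

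LYAR was the most even of the 4, at 185 in KMS11, 184 in OPM2, 178 in KMS18 and 161 in KMS34, and 0 of its 6 pairs passed. Its largest contrast, KMS11 minus KMS34, was 0.20 with an adjusted p of 0.0782. After quantile normalization its F test passed (adjusted p = 0.0299) and so did 2 pairs. In all, 13 of 24 pairs passed for the 4 genes, against 48.2% of the pairs of all tested genes.

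**Figure D3:**
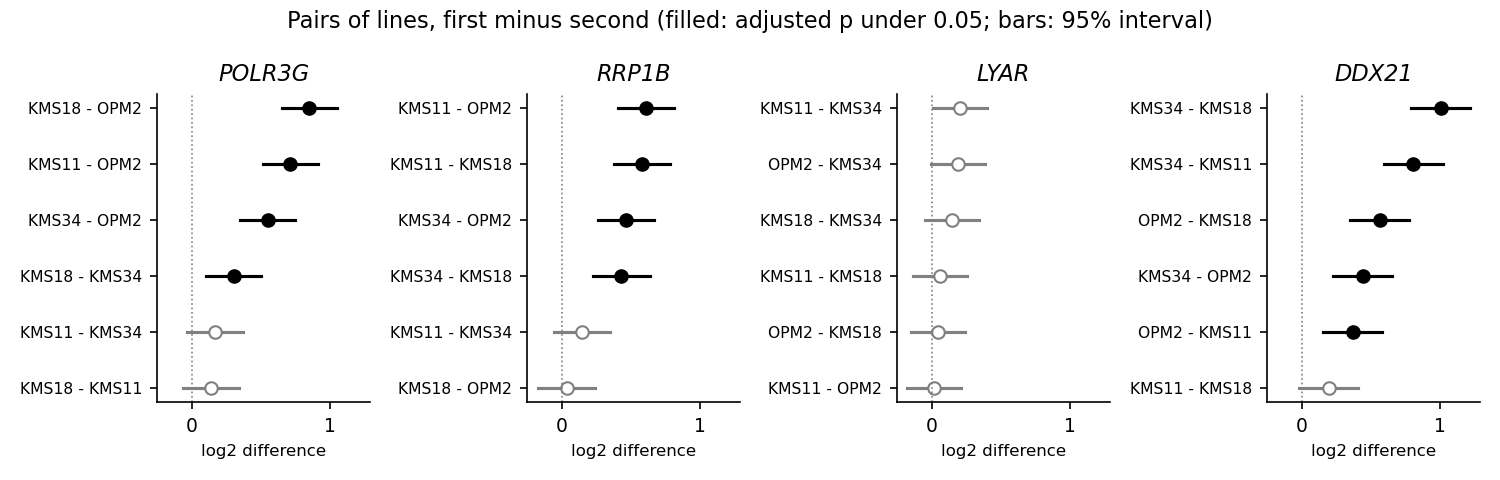
Log2 difference of line means (x axis, the first line minus the second) for the 6 pairs of lines of each gene, with 95% intervals as bars and filled symbols where the adjusted p was under 0.05. POLR3G has 4 filled pairs, RRP1B 4, LYAR 0 and DDX21 5.

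The orders of the lines differed between genes. OPM2 was lowest for POLR3G and RRP1B but second for DDX21, and KMS34 was highest for DDX21 and lowest for LYAR. Over the 8 arrays, log2 values of POLR3G and RRP1B had a Pearson correlation of 0.63, RRP1B and DDX21 one of 0.30, POLR3G and DDX21 one of -0.25 and LYAR and DDX21 one of -0.39. The 8 arrays are 4 pairs from shared lines, so the values are descriptions only.

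Genes of the polymerase III machinery other than POLR3G were read from lists written for this work. Limma called 0 of the 5 tested subunit genes and 0 of the 5 tested factor genes, and at an unadjusted p under 0.05 stood 1 of them, POLR3GL. Over all tested genes 0.099% were called lower and 0.018% higher, so that a count of 0 among 10 is near the background. At an unadjusted p under 0.05 it was 4.15% lower and 4.26% higher. POLR3C, the direct partner of POLR3G, was among the subunits, whose median log2 difference was 0.021, against -0.0033 over all tested genes. The 5 factor genes all had a mean below 0, with a median of -0.044, which was -0.0074 without KMS11, -0.021 without OPM2 and -0.12 without KMS18. CRCP, another subunit, had a difference of 0.068 and POLR3E one of -0.013, which changed sign without KMS34. The TATA-binding protein gene TBP was at -0.12 and lower in each line, from -0.097 in KMS34 to -0.13 in KMS11, and missed the threshold (adjusted p = 0.638). The gene of the La protein, SSB, which binds the ends of new polymerase III transcripts, was at -0.083 (adjusted p = 0.798), and at -0.013 without KMS11 and -0.14 without KMS18.

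Among the products of polymerase III, the RNA of RNase MRP (RMRP) had a difference of -0.049 and that of RNase P (RPPH1) one of 0.055, and neither passed (adjusted p = 0.877 and 0.884). Another 4 of the 22 listed transcripts had a row but did not pass the filter. Shared subunits of polymerases I and III gave -0.071 for POLR2H and -0.037 for POLR2F (0 of 2 called by limma, and 0 at an unadjusted p under 0.05). In the polymerase I list, 0 of 3 tested genes were called by limma, and 0 at an unadjusted p under 0.05, with POLR1F at 0.12, RRN3, which links polymerase I to its promoter factors, at 0.037 and POLR1H at -0.11. Most genes of these lists have no named row, since only 21 of 71 did, so the machinery is covered in part. In OPM2, 13 of the 17 tested genes of the 5 polymerase lists were below 0 (76.5%), with a median of -0.11, against 49.4% of all tested genes. In KMS18 it was 4 of the 17 (23.5%), with a median of 0.061, against 49.1% of all tested genes. The share was 58.8% in KMS11 and 52.9% in KMS34, against 50.5% and 53.4% of all tested genes. Each line gave 1 culture pair, and these shares were not tested.

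The nucleolar lists held factors of the small subunit processome, of large subunit assembly, of small nucleolar ribonucleoproteins and other nucleolar proteins, with the 4 genes left out. Of the 95 tested genes in the 4 lists, limma called 0, and 6 had an unadjusted p under 0.05, each of them lower, where 4.15% of all tested genes stood as well. The mean over lines was below 0 for 63 and above 0 for 32, and the median was -0.035. Of all tested genes 51.6% had a mean below 0, the background for the count of each list. The small subunit list had 25 of 33 genes below 0, with the kinase gene RIOK1 at -0.15 (adjusted p = 0.578) and RRP12 at -0.10, and DDX49 at 0.11. The large subunit list was nearly even, with 22 of 41 below 0, and its lowest genes were the helicase gene DDX24 (-0.15) and MAK16 (-0.14), while SURF6 was at 0.11. In the small nucleolar ribonucleoprotein list 9 of 13 were below 0, with the assembly factor genes RUVBL2 at -0.15 and NUFIP1 at -0.14. Of the 9 other nucleolar genes 8 were below 0, led by DDX50 and by MYBBP1A, a MYB-binding protein gene, at -0.11. Both POLR3G and RRP1B lay below the lowest of these 95 genes, DDX50 at -0.20, while LYAR and DDX21 lay within their range. The 4 genes were chosen with their differences known, so nothing is read from these places.

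**Figure D4:**
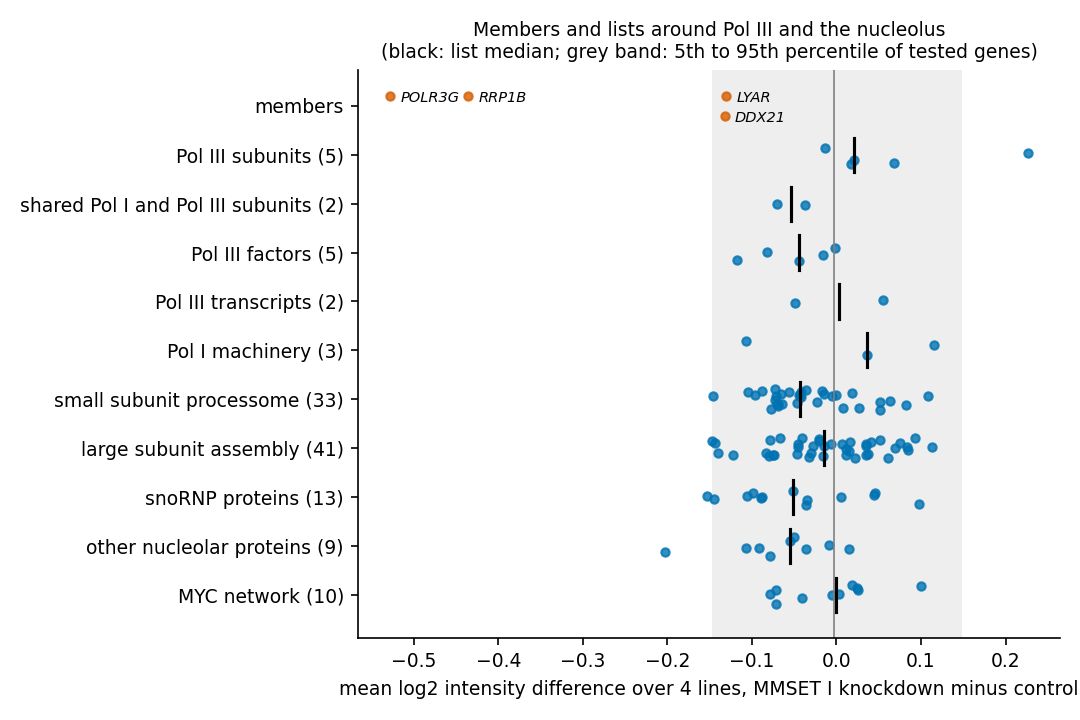
Mean log2 intensity difference over 4 lines (x axis, knockdown minus control) of the 4 genes (orange) and of the tested genes of each list (blue, number in brackets), with list medians in black and the range from the 5th to the 95th percentile of all tested genes in grey. POLR3G (-0.53) and RRP1B (-0.44), chosen with these differences known, lie left of every list gene, and POLR3GL (0.23) is the rightmost.

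The nucleolar lists had differences below 0 mainly in OPM2, the line where the 4 genes also had their lowest differences. Both come from the same culture pair, and the 4 genes were chosen with their differences known, so nothing is read from this match. In OPM2, 81 of the 95 genes had a difference below 0 (85.3%), against 49.4% of all tested genes, and the median was -0.10. The share was 57.9% in KMS11, 45.3% in KMS18 and 55.8% in KMS34, with medians of -0.035, 0.0091 and -0.012. Over all tested genes it was 50.5% in KMS11, 49.1% in KMS18 and 53.4% in KMS34, where the median of all genes was -0.012 as well. The small nucleolar ribonucleoprotein list was below 0 for 13 of 13 genes in OPM2, with a median of -0.23, while in KMS18 it was so for 3 of 13. Without OPM2 the median of the 95 genes over lines was -0.0053. Neither quantile normalization nor centring changed the count of 81 in OPM2. In KMS34 the share was 44.2% after quantile normalization, with a median of 0.0091, and 62.1% after centring, with a median of -0.033. Nucleolar genes are mostly bright, with 56 of the 95 above the 75th percentile of brightness, and of the other genes above it 49.0% were below 0 in OPM2. This pattern was noticed in the data and rests on 1 culture pair, so it has no test.

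**Figure D5:**
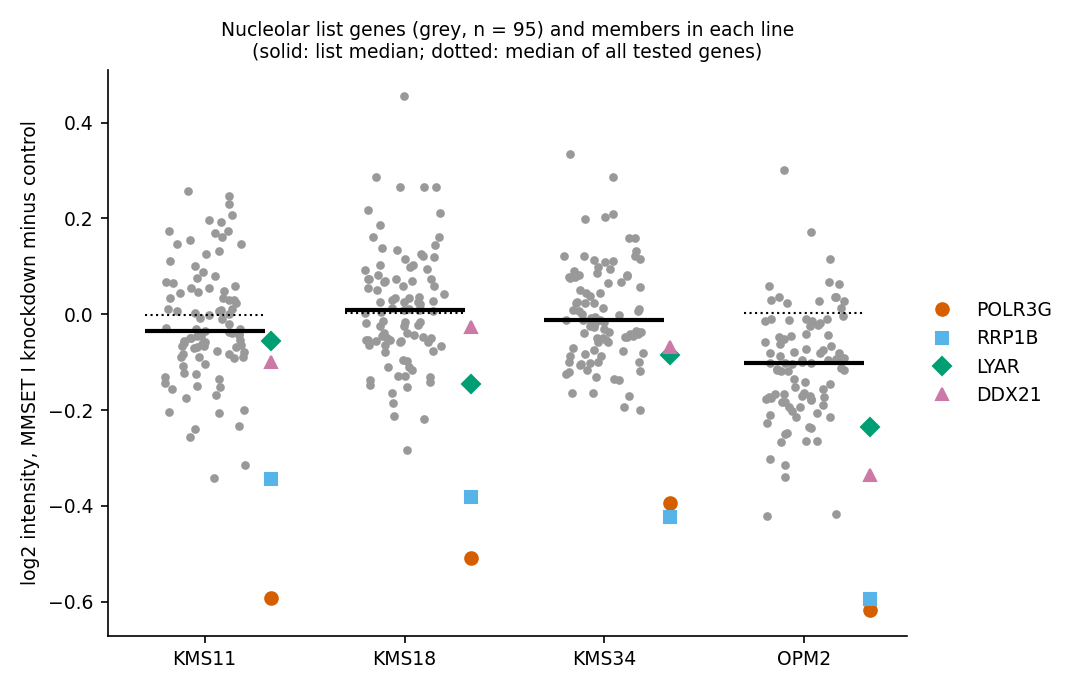
Log2 intensity difference, knockdown minus control (y axis), of 95 nucleolar list genes in each line (grey), with the list median as a solid bar, the median of all tested genes as a dotted bar, and the 4 genes as coloured symbols. In OPM2 the list median is -0.10 and 81 genes lie below 0. POLR3G and RRP1B, chosen with their differences known, lie under every list gene in KMS11, KMS18, KMS34 and OPM2.

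The MYC network gave no call among 10 tested genes (0 at an unadjusted p under 0.05 by limma), with a median of -0.00089. Over all tested genes 0.099% were called lower and 0.018% higher, and 4.15% and 4.26% stood at that unadjusted p. Its genes included the repressor genes MXD3 at -0.078, though above 0 in KMS18, and MXD1 at -0.072, and MXD4 at 0.10. Below 0 were 9 of the 10 in KMS34, 5 in KMS18, 4 in OPM2 and 3 in KMS11. The shares of all tested genes below 0 were 53.4%, 49.1%, 49.4% and 50.5% in that order. Each line gave 1 culture pair, and these counts were not tested.

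Genes near the 4 on their chromosomes, whose starts lie within 250 kb in RefSeq, gave no call. Of 16 such genes tested limma called 0, with DDX50 and AATBC lower and TMEM128 higher at an unadjusted p under 0.05, and 7 had a mean below 0. Of all tested genes 4.15% were lower and 4.26% higher at that unadjusted p, and 51.6% had a mean below 0. The 1 tested neighbour of POLR3G on chromosome 5, MBLAC2, was at 0.12 (adjusted p = 0.651). Near RRP1B on chromosome 21, HSF2BP was at -0.13 and lower in each line (adjusted p = 0.620), and the noncoding gene AATBC was at -0.19 (adjusted p = 0.593). Both were dim beside the filter cut of 46.7, with intensities of 42.6 to 59.4 for HSF2BP and 48.1 to 70.2 for AATBC. Near LYAR on chromosome 4, which also carries NSD2, TMEM128 was at 0.16 and higher in each line (adjusted p = 0.562), with ZBTB49 at 0.023. Near DDX21, apart from DDX50, KIFBP was at -0.078 (adjusted p = 0.798), with intensities under that cut in KMS18 and OPM2 (32.4 to 39.2).

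The genes most like each of the 4 were found by Pearson's r over the log2 values of the 8 arrays, which follow both line and knockdown. POLR3G was most like the phospholipid flippase subunit gene TMEM30A (r = 0.96), followed by ZXDC, ODF2, the transfer RNA splicing endonuclease subunit gene TSEN15 (0.94) and RPUSD3. TMEM30A had a log2 knockdown difference of -0.34 and TSEN15 one of -0.21, and neither passed (adjusted p = 0.138 and 0.447). RRP1B was most like GET1 (0.99), ACTR6 (0.97), XAB2, COQ10B and ZNF653. LYAR was most like DLL4 (0.97), RPGR (0.96), APOC3, DDX46 and LINC01128. Of these DLL4 was dim, at 52.5 to 64.0 over the 8 arrays, where the filter cut was 46.7. APOC3 had 66.5 to 80.0, while DDX46 was brighter, at 395 to 509. DDX21 was most like MRPS9 (0.98), BSG (0.98), NELFCD, LONRF1 and CEP20. These arrays come from 4 lines, and no p is given.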

How the data were processed

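Per the labels' protocols total RNA was labelled with biotin, so that each array carries 1 sample, and per the series text it was hybridised to Affymetrix Human Gene 2.0 ST arrays. The table deposited by the authors holds an intensity on a linear scale for each transcript cluster and array, from GeneSpring per the series text. Background correction, normalization and summarization are not given in the sources used here, and raw probe signals were not used. Here log2 of the intensity was taken. Of 44629 rows, 15835 had 1 gene symbol in the platform annotation, 0 several and 28794 none. For the 651 genes with several rows the brightest was used, and genes under the 25th percentile of mean log2 values (an intensity of 46.7) were left out. Limma 3.58.1 in R 4.3.3 (lmFit, eBayes) was fitted to all 11109 genes with cell line as a block. The threshold was an adjusted p of 0.05 (Benjamini-Hochberg). Line means were compared in the same fit. The pairing follows the cell line: deviations from the group means correlated at 0.925 to 0.932 between arrays of a line and at -0.14 at most between lines. P-values, standard errors and intervals rest on limma's moderated variance. For each gene it joins the spread over 4 lines with 1 culture pair each and a prior variance from all tested genes. These weigh in with 3 and 9.0 degrees of freedom, so the values do not measure a gene's own spread alone. P-values between lines use the same moderated variance. No culture of a line was repeated in the same condition, so they do not measure the spread between such cultures. The fits were also run on data simulated from the line means and spread of the same model, which cannot check that model's assumptions.

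The 4 genes and the lists were chosen with earlier results of these data known. The named genes were the 4, their paralogs, NSD2, per list up to 3 genes per direction past the threshold or else up to 2 by smallest p, 5 genes per member by likeness, leaving out small RNA and LOC symbols, and tested neighbours. MAP3K3 and MCM6 are named outside that rule, as the genes beside the threshold. Alternatives were other scalings, filters, rows and variance models, no block and leaving out each line. The number of arrays limits the precision.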

Additional observations from a re-analysis of the deposited data

Results flagged for a closer look

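Each reported level and difference was examined for 1 line far from the other 3. In the MYC network list, the difference of MXD3 in KMS18 was 0.16, while the other lines lay between -0.14 and -0.19. It was the only one of the 98 values examined to stand so far from the others, and chance does so for about 1 in 20 sets.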

How the results depend on the processing

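The count of genes with a knockdown call rested on the settings, with 11 lower and 2 higher as reported. It was 4 lower and 0 higher without a filter (581 and 587 at an unadjusted p under 0.05), 23 lower and 6 higher with a trended robust variance, and 15 lower and 4 higher with the filter at the 50th percentile. Limma called 0 lower and 0 higher over all rows (1518 lower and 1545 higher at an unadjusted p under 0.05) and 0 and 0 with no replicate block (16 and 2), the pairing being that of the cell line. Leaving out each line in turn gave 1 to 2 lower and 0 to 0 higher (379 to 446 and 370 to 457 at an unadjusted p under 0.05). The line calls numbered 17201 of 44629 rows when all rows were tested (38.5%), against 8412 of 11109 genes (75.7%). LYAR passed the F test after quantile normalization (adjusted p = 0.0299), and 2 of its pairs passed there and 1 after median centring.

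Over the leave-outs of a line, the mean difference ranged from -0.57 to -0.50 for POLR3G, from -0.47 to -0.38 for RRP1B, from -0.16 to -0.096 for LYAR and from -0.17 to -0.065 for DDX21. The median of the 95 nucleolar genes ranged from -0.048 to -0.0053, the last without OPM2. Differences near 0 changed sign over the same leave-outs: RRP1 ranged from -0.026 to 0.039, POLR3E from -0.038 to 0.0021, RPPH1 from -0.0022 to 0.14, RRN3 from -0.0068 to 0.12, NOM1 from -0.051 to 0.089, MGA from -0.025 to 0.080, CSTB from -0.0996 to 0.11, OTOP1 from -0.023 to 0.065, ZBTB49 from -0.014 to 0.071, STX18 from -0.017 to 0.075, CCAR1 from -0.027 to 0.050 and VPS26A from -0.0038 to 0.13. CCAR1 was at 0.010 after quantile normalization.

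Calls between lines in the small lists moved by single genes. The shared subunits gave 1 in place of 0 after quantile normalization, median centring, the 50th percentile filter and the trended variance, and 0 to 1 over the leave-outs. The polymerase III factors gave 5 in place of 3 after quantile normalization and the 50th percentile filter, and 3 to 5 over the leave-outs. The polymerase III transcripts gave 3 in place of 1 without a filter, 2 over all rows and with the trended variance, and 0 to 1 over the leave-outs. Of 1219 recomputed values, 1166 kept their direction and their side of the threshold or stayed within the spread. The cause of the other changes was not tested. With 4 lines and 1 culture of each, small differences lay beyond the precision of these arrays.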
